A study of Arabidopsis thaliana with 8 samples.

Results

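Transcript levels of 8 autophagy genes were followed in Arabidopsis seeds that had been imbibed warm or cold. The genes were chosen by name, as all those whose probe set carries a single annotated symbol made of ATG and a number. They are ATG3 (AT5G61500), ATG8B (AT4G04620), ATG8C (AT1G62040), ATG8D (AT2G05630), ATG8E (AT2G45170), ATG8F (AT4G16520), ATG8G (AT3G60640) and ATG8H (AT3G06420). These are 8 of 13356 genes with a probe set annotated to 1 gene, each with 1 probe set, and all 8 passed the filter on low values that left 13648 probe sets to test. The name and not the pathway decided, so the ATG8 genes listed as APG8A and APG8H are not among them and are described with the rest of the pathway.

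Seeds were either Col-0, the wild type, or 35S-GSH1, an overexpressor of GSH1 in the Columbia (Col-0) background. They were imbibed for 24 h at 22 °C, which the labels call imbibition without vernalization, or at 4 °C, called with vernalization, which gave 4 groups of 2 arrays. GSH1 encodes glutamate-cysteine ligase, which makes the precursor of glutathione, and 35S is a viral promoter active in most plant tissues. The sources used here do not say whether the overexpressor is 1 transgenic line or several, or how old the seeds were. They also do not say that replicates were separate seed lots, so the p-values cover the spread of these samples only, and it may be technical.

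In autophagy, a cup-shaped membrane grows around a portion of cytoplasm, closes into an autophagosome and delivers its load to the vacuole for breakdown. ATG8 is a small ubiquitin-like protein that becomes attached to a lipid of that membrane, where it helps the membrane to grow and holds cargo receptors. The protease ATG4 trims ATG8, ATG7 activates it, and ATG3 is the E2-like enzyme that passes it to the lipid. Yeast has a single ATG8 gene, whereas plants have a family. ATG8H and its closest Arabidopsis relative, ATG8I, lack the tail that ATG4 has to remove from the other ATG8 proteins. Yeast Atg4 is known to be sensitive to its redox state, and glutathione is a main redox buffer of plant cells. In seeds, stored protein is broken down in vacuoles after imbibition.

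The arrays gave a whole-seed average, so fewer cells that express a gene and less transcript per cell cannot be told apart. Array medians of the deposited intensity lay between 12.3 and 16.2, and replicate arrays correlated with a Pearson's r of 0.962 to 0.972 over the probe sets tested. No probe set annotated to 1 gene was paired with GSH1, so the overexpression itself was not checked. The seed label could be looked at only with 2 oleosins, proteins of the seed oil bodies. They were the only ones of 13 listed seed reserve markers with a probe set annotated to 1 gene. AT3G01570, listed here with the oleosins, had intensities of 6837 to 7639 on all 8 arrays, and OLEO3 had 478 to 779. BAN, 1 of 3 listed seed coat genes and the only such gene with a probe set annotated to 1 gene, was below the filter on low values at 0.438 to 7.18. None of the 10 listed leaf photosynthesis markers and neither of the 2 endosperm markers could be looked up, since none had a probe set annotated to 1 gene.

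Averaged over both genotypes, ATG8B and ATG8E transcripts fell at 4 °C and ATG8H rose, the last by a call that many other settings ended. ATG8D did not pass, and ATG8C, ATG8F, ATG8G and ATG3 had differences within 0.1 log2 units of 0. Values are intensities after quantile normalization, which gives all arrays the same distribution, and differences are on the log2(intensity + 1) scale. In this averaged comparison (4 arrays at each temperature), limma placed 3 of the 8 genes past an adjusted p of 0.05, with 1 higher and 2 lower at 4 °C. Of all probe sets tested 16.4% passed in this comparison, 8.65% higher and 7.74% lower. The median log2 difference of the 8 genes was 0.053, against 0.0056 over all probe sets. Rose and fell refer to cold against warm seeds, both sampled after 24 h. How far each had advanced towards germination is unknown, so temperature and developmental stage cannot be told apart.

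**Figure D1:**
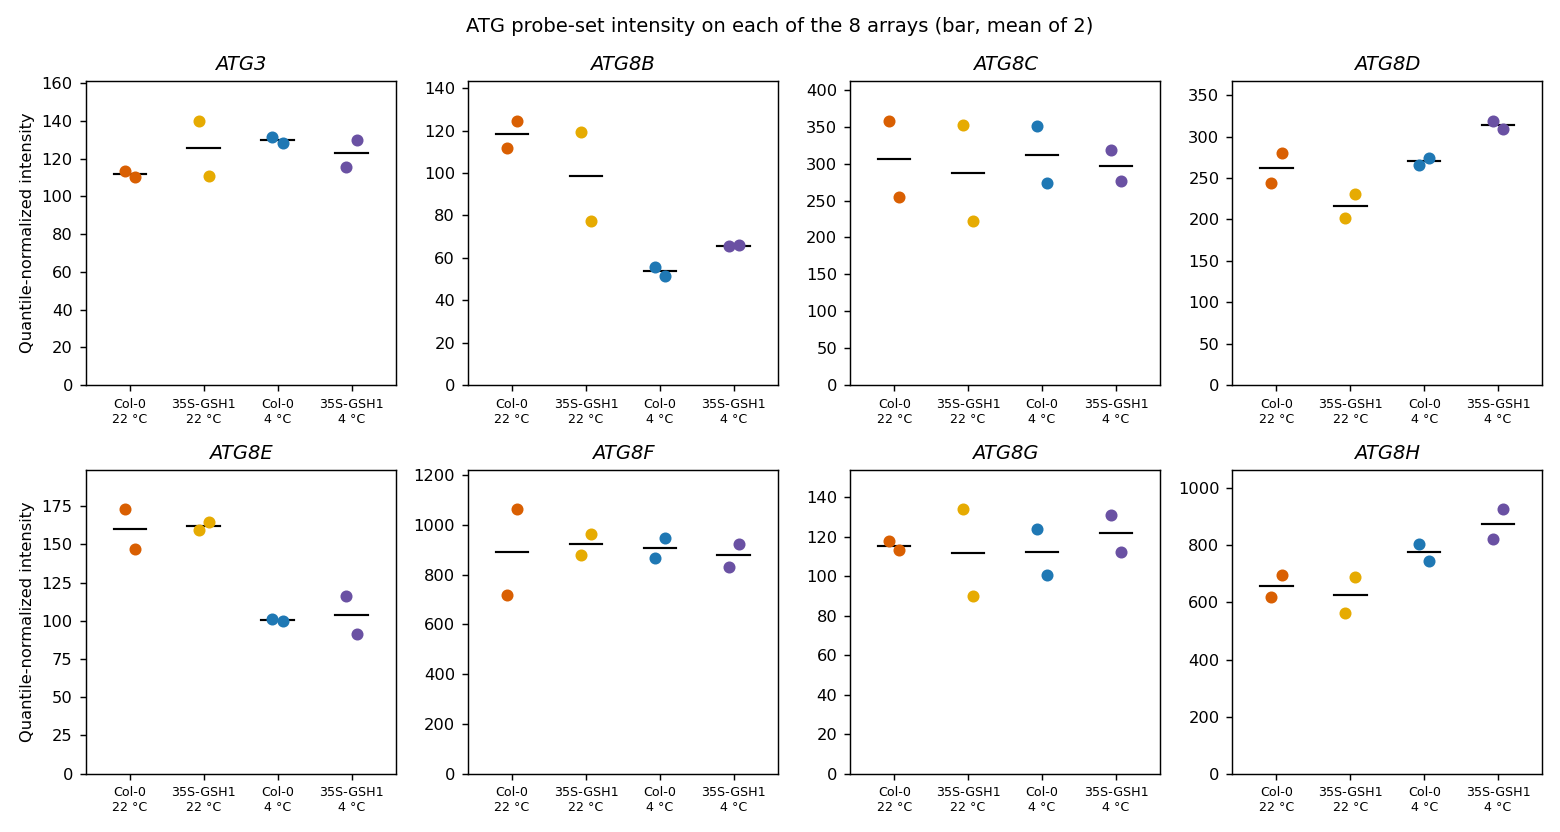
Quantile-normalized intensity (vertical axes, from 0) of each ATG gene on each array; points are single arrays, bars the mean of the 2 arrays of a group. ATG8B and ATG8E lie lower on all 4 arrays at 4 °C than on all 4 at 22 °C, ATG8H lies higher on all 4, and the other 5 genes overlap between the temperatures.

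ATG8B had the largest difference. In Col-0 its intensity was 112 and 125 at 22 °C and 55.8 and 51.5 at 4 °C. In 35S-GSH1 it was 119 and 77.5 at 22 °C and 65.6 and 65.9 at 4 °C. All 4 cold arrays lay below all 4 warm ones. The lowest warm value, that of 35S-GSH1 at 22 °C replicate 2, was still above both cold arrays of that genotype. The fall averaged over both genotypes was a log2 difference of -0.83 (1.78-fold, SE 0.16, 95% interval -1.17 to -0.50, limma adjusted p = 0.00244). In Col-0 alone ATG8B fell by 1.13 on the log2 scale (2.18-fold, SE 0.22, 2 arrays per group, limma adjusted p = 0.00798). It was the only one of the 8 genes to pass in that genotype, where 6.98% of all probe sets passed and 3.30% did so as lower. That call was lost without Col-0 at 22 °C replicate 2 (adjusted p = 0.0509) and without the intensity trend in the test (adjusted p = 0.0739). In 35S-GSH1 the difference was -0.54 (95% interval -1.02 to -0.067, limma adjusted p = 0.193). Its size there hung on the 22 °C pair: -0.23 without replicate 1 and -0.85 without replicate 2.

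ATG8E differed by nearly the same amount in both genotypes. Col-0 arrays read 173 and 147 at 22 °C and 101 and 99.6 at 4 °C. Those of 35S-GSH1 read 159 and 165 at 22 °C and 116 and 91.7 at 4 °C. Again no cold array reached the lowest warm one. The log2 differences were -0.66 in Col-0 (SE 0.19, limma adjusted p = 0.0531) and -0.64 in 35S-GSH1 (SE 0.19, limma adjusted p = 0.0664), neither of which passed alone. Averaged over both genotypes, ATG8E fell by 0.65 (1.57-fold, SE 0.13, 95% interval -0.94 to -0.36, limma adjusted p = 0.00445). The averaged calls of ATG8B and ATG8E held under all 18 other settings that could be applied to that comparison, the 8 that leave out 1 array among them.

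ATG8H, which like ATG8I lacks a tail to trim, went the other way. It had 618 and 697 at 22 °C and 806 and 745 at 4 °C in Col-0. In 35S-GSH1 it had 563 and 688 at 22 °C and 821 and 926 at 4 °C. The groups did not overlap, with every cold array above every warm one. Averaged over both genotypes, ATG8H rose by 0.36 (1.29-fold, SE 0.11, 95% interval 0.12 to 0.61, limma adjusted p = 0.0436). This call was close to the threshold: it was lost under 11 of 18 settings, among them the deposited scale (log2 difference 0.35, adjusted p = 0.0778), centring on the array median (0.24, adjusted p = 0.296) and leaving out any 1 of 6 arrays (adjusted p up to 0.159, without 35S-GSH1 at 4 °C replicate 2). The difference stayed above 0 in each of these. In single genotypes it did not pass, with 0.24 in Col-0 (limma adjusted p = 0.426) and 0.49 in 35S-GSH1 (limma adjusted p = 0.102). The Col-0 value was 0.12 with median centring and 0.15 without Col-0 at 22 °C replicate 1.

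Non-overlap of the 4 cold and 4 warm arrays was seen for 3 of the 8 genes and for 20.8% of all probe sets tested. Within a genotype, 2 cold and 2 warm arrays did not overlap for 4 of the 8 genes in Col-0 and 4 of the 8 in 35S-GSH1, near the shares of all probe sets, which were 49.8% and 49.7%. On the deposited scale, the median of all probe sets stood 0.11 log2 units higher at 4 °C, and 68.9% of all calls were higher, against 52.7% after quantile normalization. The ratio of 2 probe sets on the same array is free of that scaling, though its own size compares different probes and only its change can be read. The log2 ratio of ATG8H to ATG8B in the deposited intensities was 2.29 to 3.20 on the warm arrays and 3.57 to 3.79 on the cold ones. That of ATG8H to ATG8E was 1.87 to 2.28 on the warm and 2.75 to 3.25 on the cold arrays. Both ratios were thus higher on every cold array. In the deposited intensities ATG8H was itself higher on every cold array, and ATG8B and ATG8E were lower. The outcome of these 2 ratios was therefore already set and adds nothing to those values. Against ATG8F, whose averaged difference was near 0, the ranges overlapped. The log2 ratio of ATG8F to ATG8B was 2.78 to 3.66 warm and 3.59 to 4.00 cold, and that of ATG8F to ATG8E was 2.14 to 2.89 warm and 2.79 to 3.25 cold. ATG8E against ATG8B gave overlapping ranges, 0.24 to 1.13 warm and 0.47 to 0.94 cold. These pairs were picked after their values were seen and carry no test.

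**Figure D2:**
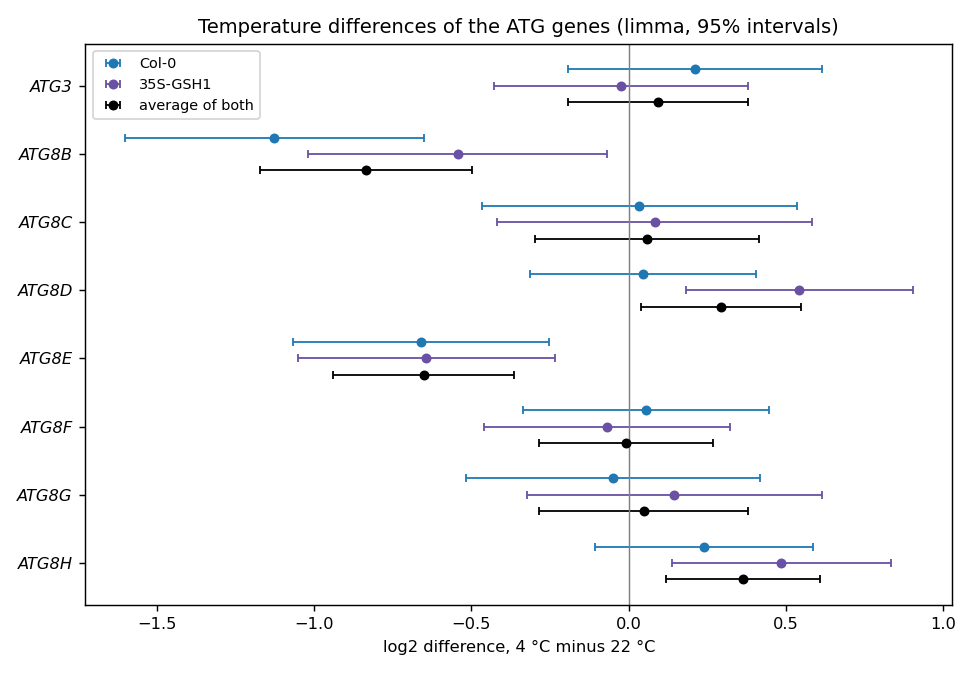
Log2 difference between 4 °C and 22 °C (horizontal axis) for each ATG gene in Col-0, in 35S-GSH1 and averaged over both; points are limma estimates and bars 95% intervals. ATG8B and ATG8E lie left of 0 in both genotypes, and the averaged intervals of ATG3, ATG8C, ATG8F and ATG8G include 0.

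ATG8D, in the same sequence group as ATG8B and ATG8C, had the following values in the genotypes. In 35S-GSH1 its intensity was 201 and 231 at 22 °C and 319 and 310 at 4 °C, without overlap. In Col-0 it was 244 and 280 at 22 °C and 266 and 275 at 4 °C, with the cold pair inside the warm one. The log2 difference was 0.54 in 35S-GSH1 (SE 0.17, 95% interval 0.18 to 0.90, limma adjusted p = 0.0775) and 0.045 in Col-0 (SE 0.17, limma adjusted p = 0.916), and neither passed. The interaction, 35S-GSH1 minus Col-0, was 0.50 (SE 0.24, 95% interval -0.012 to 1.01), with an unadjusted p of 0.0548 and a limma adjusted p of 1. Averaged over both genotypes ATG8D had 0.29 (limma adjusted p = 0.113).

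The remaining 4 genes gave no temperature call in either genotype. ATG8F had warm values of 718 and 1063 in Col-0 and 881 and 963 in 35S-GSH1, and cold values of 869 and 948 in Col-0 and 833 and 925 in 35S-GSH1. Its averaged log2 difference was -0.0073 (95% interval -0.28 to 0.27), and the cold values all lay within the span of the Col-0 warm pair. For ATG8C the averaged difference was 0.058 (95% interval -0.30 to 0.41), with intensities of 223 to 358 at 22 °C and 274 to 350 at 4 °C. ATG8G had 0.048 (95% interval -0.28 to 0.38) and intensities of 89.8 to 134 warm and 100.5 to 131 cold. ATG3, the enzyme that attaches ATG8 to its lipid, had 110.2 to 140.1 warm and 115.7 to 131.3 cold, an averaged difference of 0.094 (95% interval -0.19 to 0.38). In Col-0 its cold arrays, at 131.3 and 128.0, lay above the warm ones, at 113.5 and 110.2, by a log2 difference of 0.21 (limma adjusted p = 0.567). In 35S-GSH1 they overlapped, with a difference of -0.023 that turned to 0.095 on the deposited scale. Limma adjusted p-values of these 4 genes in the averaged comparison ran from 0.690 for ATG3 to 0.980 for ATG8F. The intervals leave room for changes of up to about the size seen in ATG8H.

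In 35S-GSH1 alone, 0 of the 8 genes passed with limma, while 4 (ATG8B, ATG8D, ATG8E and ATG8H) had an unadjusted p under 0.05. Of all probe sets 5.58% passed there. The temperature differences of the genotypes were set against each other by the interaction, which asks whether 35S-GSH1 changed the temperature difference. None of the 8 genes passed (limma adjusted p = 1 for each, 0 with an unadjusted p under 0.05). Of all probe sets 0% did, and 453 had an unadjusted p under 0.05. The largest interaction was that of ATG8B, 0.58 (95% interval -0.089 to 1.26), so a weaker fall in 35S-GSH1 is not shown. It ran from 0.27 without 35S-GSH1 at 22 °C replicate 2 to 0.89 without replicate 1 of that group.

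The genotype comparison asked whether the overexpressor differed from the wild type at the same temperature, and no ATG gene did by the test. At 22 °C limma passed 0 of the 8 genes (0 with an unadjusted p under 0.05) and 0% of all probe sets, of which 779 had an unadjusted p under 0.05. The log2 differences ran from -0.29 for ATG8B (95% interval -0.77 to 0.18, limma adjusted p = 0.890) to 0.15 for ATG3 (95% interval -0.25 to 0.56, limma adjusted p = 0.925). The ATG8B value rested on 1 array and was 0.015 without 35S-GSH1 at 22 °C replicate 2. At 4 °C limma again passed 0 of the 8 (0 with an unadjusted p under 0.05) and 0% of all probe sets, 439 with an unadjusted p under 0.05. Differences there ran from -0.081 for ATG3 to 0.29 for ATG8B (95% interval -0.18 to 0.77, limma adjusted p = 1). The 35S-GSH1 arrays lay above the Col-0 arrays without overlap for 3 genes at 4 °C (ATG8B, ATG8D and ATG8H) and below them for 1 gene at 22 °C (ATG8D). Such non-overlap of 2 arrays against 2 was found for 32.3% of all probe sets at 4 °C and 33.4% at 22 °C. Averaged over both temperatures, limma passed 0 of the 8 genes (0 with an unadjusted p under 0.05) and 0.0220% of all probe sets. Those were 3 probe sets, all lower in 35S-GSH1, and 697 of all probe sets had an unadjusted p under 0.05. No 95% interval of the 8 genes in that averaged comparison reached below -0.44 or above 0.35, so an averaged genotype effect larger than that lies outside the interval of each gene.

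**Figure D3:**
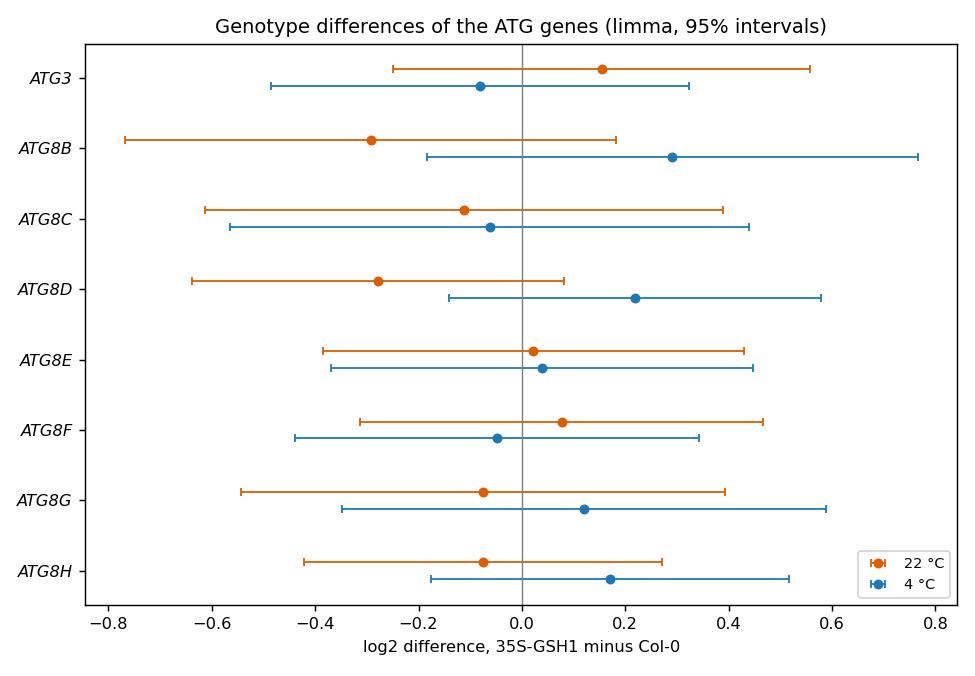
Log2 difference between 35S-GSH1 and Col-0 (horizontal axis) for each ATG gene at 22 °C and at 4 °C; points are limma estimates and bars 95% intervals. All 16 intervals include 0.

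By group of 2 arrays, the order of levels was as follows for the 3 genes past the threshold. ATG8B had a mean of 118 ± 9.10 (SD, n = 2) in Col-0 and 98.5 ± 29.6 in 35S-GSH1 at 22 °C, then 65.8 ± 0.234 in 35S-GSH1 and 53.6 ± 3.02 in Col-0 at 4 °C. The warm groups overlapped, whereas the cold groups did not. ATG8E had 162 ± 4.03 in 35S-GSH1 and 160 ± 18.3 in Col-0 at 22 °C, then 104 ± 17.4 in 35S-GSH1 and 101 ± 1.35 in Col-0 at 4 °C. Genotypes overlapped at both temperatures. ATG8H had 874 ± 74.4 in 35S-GSH1 and 775 ± 43.3 in Col-0 at 4 °C, then 657 ± 55.8 in Col-0 and 626 ± 88.3 in 35S-GSH1 at 22 °C. Here only the warm groups of the 2 genotypes overlapped. Such non-overlap of the genotypes at 4 °C, as for ATG8B and ATG8H, was found for 32.3% of all probe sets tested. Neither genotype difference passed.

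The rest of the pathway was looked up in 8 lists of 70 loci, written from general knowledge, of which 62 are not among the 8 genes. Of those 62, 19 had a probe set annotated to 1 gene and 17 were tested. In the averaged temperature comparison limma passed 1 of the 17, which was higher at 4 °C, and 16 did not pass, where 16.4% of all probe sets passed. Their median log2 difference was 0.059, against 0.0056 over all probe sets. With so few loci annotated, the lists describe only a small share of the pathway.

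The 2 other ATG8 genes did not pass. APG8A, which RefSeq also names ATG8A, had intensities of 137 to 190 at 22 °C and 161 to 226 at 4 °C, a log2 difference of 0.23 (limma adjusted p = 0.342). APG8H, which RefSeq also names ATG8I, had 2074 to 2351 at 22 °C and 1719 to 2077 at 4 °C, a difference of -0.17 (limma adjusted p = 0.307). This relative of ATG8H thus had a difference of the opposite sign, with ranges that overlapped between the temperatures. With them, all 9 listed ATG8 genes were tested: 1 rose, 2 fell and 6 did not pass, with a median of 0.048 and 16.4% of all probe sets past the threshold. In Col-0 alone 1 fell and 8 did not pass (6.98% of all probe sets passed), and in 35S-GSH1 none of the 9 passed with limma (5.58% of all probe sets passed).

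The one other gene past the threshold was RAPTOR1, also named RAPTOR1B, a subunit of the TOR kinase complex. TOR holds autophagy down when nutrients are plentiful. RAPTOR1 read 57.3 and 66.3 at 22 °C and 110.0 and 116.4 at 4 °C in Col-0. In 35S-GSH1 it read 63.3 and 71.3 at 22 °C and 92.7 and 131.0 at 4 °C. No cold array came down to the highest warm one. It rose by 0.79 averaged over both genotypes (limma adjusted p = 0.00273), by 0.87 in Col-0 (limma adjusted p = 0.0253), and had 0.71 in 35S-GSH1 (limma adjusted p = 0.0701). The Col-0 call was lost without any 1 of the 4 Col-0 arrays (adjusted p up to 0.139, without Col-0 at 22 °C replicate 1), with median centring (adjusted p = 0.0568), without the intensity trend (adjusted p = 0.109) and at a threshold of 0.01, while the averaged call held under the same 18 settings as above. RAPTOR1 was 1 of 11 listed genes of TOR and SnRK1 signalling and the only one tested. The other gene of that list with a probe set, RAPTOR2, was below the filter.

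**Figure D4:**
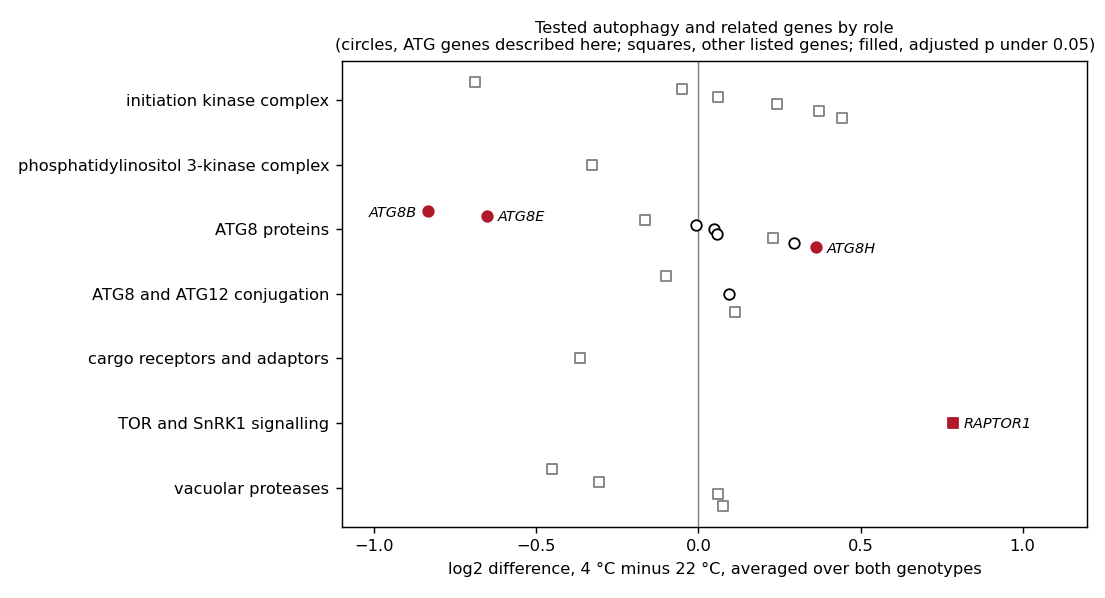
Log2 difference between 4 °C and 22 °C averaged over both genotypes (horizontal axis) for every tested gene of the autophagy lists, grouped by role; circles are the 8 ATG genes and squares the 17 other genes, filled where the limma adjusted p was under 0.05. The ATG8 row holds genes on both sides of 0, and RAPTOR1 is the one filled square.

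In the other roles no tested gene passed with limma in the averaged comparison. The 6 tested loci listed for the initiation kinase complex, which starts autophagosome formation, had a median of 0.15. Among them AT1G49180, near the filter intensity at 7.75 to 22.4, had -0.69 (limma adjusted p = 0.0992). AT2G37840 had 0.37 (limma adjusted p = 0.150). AT3G61960 had 0.24 (limma adjusted p = 0.307). AT3G18770, likewise near the filter intensity at 3.7 to 21.0, had 0.44 (limma adjusted p = 0.477). In the list for ATG8 and ATG12 conjugation 2 further loci were tested, with 0.11 for AT5G50230 and -0.099 for AT3G59950. Each of the lists for the phosphatidylinositol 3-kinase complex and for cargo receptors and adaptors had 1 tested locus, at -0.33 and -0.37. The latter value, of AT4G34660, averaged opposite signs. It had 0.19 in the wild type (limma adjusted p = 0.761) and -0.93 in the overexpressor (limma adjusted p = 0.0837). The interaction of AT4G34660 was -1.12 (SE 0.41) and did not pass. The list of ATG9, ATG2 and ATG18 genes had none with a probe set annotated to 1 gene. Of the vacuolar processing enzymes, proteases that mature proteins in the vacuole, BETA-VPE had 0.059 (limma adjusted p = 0.792) and GAMMA-VPE 0.077 (limma adjusted p = 0.750). ALPHA-VPE, also near the filter intensity at 5.7 to 15.5, had -0.45 (limma adjusted p = 0.472), and DELTA-VPE was below the filter. AT4G01610, listed with the vacuolar proteases, had -0.31 (limma adjusted p = 0.163).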

How the data were processed

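Each of the 8 samples was measured on 1 single-colour Affymetrix array. The deposited values are probe-set intensities on a linear scale, made with GCOS per the submitters' processing notes; the sources used here give no version, algorithm or scaling target. The arrays were quantile normalized, since their medians differed, and analysed as log2(intensity + 1). A filter at the 40th percentile of mean log2 values (2.86, an intensity of 6.26) left 13648 of 22746 probe sets. The test was limma 3.58.1 in R 4.3.3, 1 coefficient per group, 4 residual degrees of freedom, and moderation with an intensity trend (9.93 prior degrees of freedom). It was two-sided, with Benjamini-Hochberg adjustment over all probe sets tested, a threshold of 0.05 and 7 contrasts. Precision was limited by the number of arrays, with 95% intervals of ± 0.52 log2 units (median) for 2 arrays against 2 and ± 0.37 for 4 against 4.

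Genes were named from the platform table, with loci and synonyms from RefSeq (TAIR10.1); 13513 probe sets had 1 gene and 13436 matched. All 8 ATG probe sets are of the plain type the manufacturer designs against 1 gene; binding of other ATG8 transcripts to them was not tested. The members, lists and rules were chosen with earlier results of these data known. Each ATG gene is named, with up to 4 genes per list by smallest averaged adjusted p. Alternatives were the pseudocount, scaling, filter, moderation, threshold, a replicate block, the 4 arrays alone and leaving out each array; those for RAPTOR1 were chosen after seeing the data.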

Additional observations from a re-analysis of the deposited data

How the results depend on the processing

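In the averaged temperature comparison the count of ATG genes past the threshold went from 3 to 2 under several settings, with ATG8H lost and no gene higher. Among them were the deposited scale, median centring, no filter and no intensity trend. The count stayed at 0 in the genotype and interaction comparisons under every setting run. In Col-0 it went from 1 to 2, with ATG8E added, under a pseudocount of 16, a filter at the 60th percentile, robust priors, the replicate block and a threshold of 0.10, to 0 without the intensity trend, and it was 0 to 1 when 1 array was left out. In 35S-GSH1 it went from 0 to 1 with the filter at the 60th percentile, to 2 at a threshold of 0.10 and to 3 with the replicate block, namely ATG8D (adjusted p = 0.0306), ATG8E (adjusted p = 0.0261) and ATG8H (adjusted p = 0.0349). No label says that replicate numbers pair the arrays, and the differences between replicates correlated by 0.051 to 0.14 between groups, all above 0 but not all above 0.1, the level asked of every pair of groups before numbers were taken as pairs. The arrays were therefore not treated as paired. Even so, the median deposited intensity was higher on replicate 1 than on replicate 2 in each group. At 22 °C the medians were 14.2 and 13.5 in Col-0 and 14 and 12.3 in 35S-GSH1. At 4 °C they were 16.2 and 13.2 in Col-0 and 16.1 and 13.3 in 35S-GSH1. With the replicate block, all probe sets past the threshold went from 953 to 1692 in Col-0 and from 762 to 1386 in 35S-GSH1. With a pseudocount of 16 they were 1028 in Col-0 and 832 in 35S-GSH1, and with robust priors 992 and 794. The filter at the 60th percentile left 9099 probe sets, of which 1010 passed in Col-0 and 846 in 35S-GSH1. Averaged over both genotypes, 2460 passed on the deposited scale, 1819 with median centring and 1728 of 22746 without the filter. Without the intensity trend the probe sets past the threshold were 153 and 117, and 1153 instead of 2237 when averaged. At thresholds of 0.01 and 0.10 they were 345 and 1512 in Col-0, 269 and 1253 in 35S-GSH1, and 1116 at 0.01 averaged. Leaving out 1 array gave 427 to 852 in Col-0 and 257 to 792 in 35S-GSH1.

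Signs turned only for differences that had not passed, and the cause was not tested. On the deposited scale ATG8G had 0.057 in Col-0 and ATG3 0.095 in 35S-GSH1. With median centring ATG8C had -0.018 in Col-0, in 35S-GSH1 and averaged, and in Col-0 ATG8D had -0.0024 and ATG8F -0.074. When 1 array was left out, the temperature difference of ATG8C ran from -0.21 to 0.28 in Col-0, -0.24 to 0.41 in 35S-GSH1 and -0.11 to 0.22 averaged. That of ATG8F ran from -0.23 to 0.34, -0.15 to 0.0061 and -0.15 to 0.13, and that of ATG8G from -0.20 to 0.10, -0.14 to 0.43 and -0.094 to 0.19. ATG8D ran from -0.052 to 0.14 in Col-0 and ATG3 from -0.19 to 0.14 in 35S-GSH1. For genotype, ATG8B at 22 °C ran from -0.60 to 0.015, and ATG3 from -0.014 to 0.32 at 22 °C and from -0.16 to 0.00087 at 4 °C. Where 1 array remained in a group, its variance was taken from the other groups.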

Other observations

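Within groups, ATG8C and ATG8G had the higher intensity on the array numbered 1 in all 4 groups, and ATG8F on the array numbered 2. ATG8C replicates differed by 0.20 to 0.66 log2 units. Such a same-signed difference in all 4 groups was found for 3 of the 8 genes and 22.0% of all probe sets tested.

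The mean log2 value of the 8 genes was compared with 7523 other tested genes over the 8 arrays. The 5 with the most similar pattern were AT1G53450 (Pearson's r of 0.96), TET10 (0.94), AT5G59140 (0.94), AT1G33860 (0.92) and AT4G17540 (0.91). These values describe only 8 arrays, which share 4 groups, and the mean joins genes that moved in opposite directions.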
